A study of Mus musculus with 9 samples.

Results

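The genes described are 10 transcriptional outputs and feedback regulators of the ERK pathway: the phosphatase genes Dusp4, Dusp5 and Dusp6, the inhibitor genes Spry2, Spry4 and Spred1, the transcription factor genes Etv4 and Etv5, and the growth factor genes Hbegf and Areg. They were chosen by name for their role in the pathway, with earlier results of these data known. All 10 of 10 had a row among the 12125 genes of the deposited count table, and all 10 were tested. The cells were TC2R, a mouse prostate adenocarcinoma line (C57/BL6) derived from TRAMP-C2 with lentiviruses carrying activated H-ras and mouse androgen receptor, so every group, controls included, carried a constitutively active input to this pathway. The study compared 3 groups of 3 libraries, each transfected for 6 h with 1.5 µg of plasmid and 2 µL of the liposome reagent Lipofectamine per well, moved to serum-containing medium and collected 24 h after the start. IL27_pepL cells received a plasmid encoding the cytokine IL-27 with the C-terminal peptide pepL, directed at IL-6Rα. IL27_scr cells received IL-27 with a control C-terminal peptide. Plasmid control cells received the empty pcDNA3.1 vector. Transfection was transient, and the share of cells that took up plasmid is not given in the sources used here.

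ERK is the last kinase of the RAS-RAF-MEK-ERK cascade, which carries growth factor signals to the nucleus. Active ERK switches on genes that restrain it: dual-specificity phosphatases take phosphate off ERK itself, while Sprouty and Spred proteins act higher up, between the receptor and RAF. It also switches on genes that extend the signal, among them ETS factors of the PEA3 group and ligands of the EGF receptor that are cut loose from the cell surface. In tumours with active RAS or RAF, several of these transcripts are used as a readout of the pathway's output.

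Depth was alike between groups, with total counts of 30013229 to 34164353 per library in IL27_pepL, 30087806 to 35959983 in IL27_scr and 27609884 to 35078027 in plasmid control. The members were well covered, from 270 reads (Areg in plasmid control replicate 3) to 8460 reads (Dusp4 in IL27_scr replicate 1) in a library; counting error alone is 6.09% at the lowest of these. Il27 reads separated the IL-27 plasmids from the empty vector as labelled. There were 237 to 252 per IL27_pepL library, 179 to 244 per IL27_scr library and 0 to 1 per plasmid control library. These counts do not show which C-terminal peptide a library carried. Of 5 prostate epithelial markers, Krt18 and Epcam had no row in the table, and Krt8 averaged 2.03 ± 0.15 CPM (counts scaled to library size) in IL27_pepL, 2.23 ± 0.25 CPM in IL27_scr and 2.20 ± 0.46 CPM in plasmid control (SD, n = 3 each). The 5 mesenchymal markers, led by Vim, summed to 3603 to 4029 CPM in IL27_pepL, 3486 to 3539 CPM in IL27_scr and 3443 to 3560 CPM in plasmid control, so the labelled epithelial origin was weakly marked. Of 5 macrophage markers, Ptprc, Adgre1 and Lyz2 had no row, and the other 2 summed to 7.32 to 9.32 CPM over the 9 libraries. Of 3 endothelial markers, Pecam1 had no row, and the other 2 summed to 4.37 to 7.63 CPM. On the first principal component (31.5% of the variance), IL27_pepL replicate 3 was the most distant library. The ribosomal RNA precursor Rn45s took 0.364% ± 0.0978 of counts in IL27_pepL and 0.374% ± 0.0525 in IL27_scr, against 1.38% ± 0.147 in plasmid control (SD, n = 3 each); with Rn45s, Il27 and Ebi3 removed the same members were called in each comparison. Nothing in the labels says that replicates were separate cultures, so p-values measure the spread between these libraries, which may be technical.

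Promoters are shown for the phosphatase gene that changed, Dusp6, for the phosphatase gene Dusp5, whose differences from plasmid control were above 0, and for Areg, because the last 2 were the members with a match to a searched motif. Each is the RefSeq window of build GRCm38.p6, from 250 bases before to 50 bases after the annotated start, plus strand, written 5′ to 3′, with motif matches in capitals. Dusp6 lies at chr10:99262981-99263280, Dusp5 at chr19:53528895-53529194 and Areg at chr5:91139349-91139648.
Dusp6: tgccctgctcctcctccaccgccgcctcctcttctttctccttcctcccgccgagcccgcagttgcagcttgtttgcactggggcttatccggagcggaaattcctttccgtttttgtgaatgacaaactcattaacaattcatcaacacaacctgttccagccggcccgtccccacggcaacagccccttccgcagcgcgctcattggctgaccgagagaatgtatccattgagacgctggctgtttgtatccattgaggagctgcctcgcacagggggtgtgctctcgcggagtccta
Dusp5: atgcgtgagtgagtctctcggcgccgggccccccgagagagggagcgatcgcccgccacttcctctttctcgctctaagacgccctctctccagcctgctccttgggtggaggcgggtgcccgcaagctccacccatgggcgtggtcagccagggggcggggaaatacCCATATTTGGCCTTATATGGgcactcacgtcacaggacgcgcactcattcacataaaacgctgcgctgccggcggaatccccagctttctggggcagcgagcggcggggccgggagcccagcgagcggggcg
Areg: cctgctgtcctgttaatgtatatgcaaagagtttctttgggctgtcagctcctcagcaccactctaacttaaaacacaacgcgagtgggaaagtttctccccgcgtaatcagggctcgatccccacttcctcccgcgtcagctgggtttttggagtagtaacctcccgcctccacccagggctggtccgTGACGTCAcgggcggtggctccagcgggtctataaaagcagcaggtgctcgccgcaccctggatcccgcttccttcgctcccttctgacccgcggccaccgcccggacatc
Windows were found for 6 of the 10 members, the others being Spred1, Spry2 and Etv5; Dusp4, Spry4, Etv4 and Hbegf were not read. On both strands 5 motifs were searched: AP-1 (TGANTCA), ETS (CCGGAAGT), CRE (TGACGTCA), STAT (TTCNNNGAA) and, added after the sequences were seen, the CArG box, the core of the serum response element. The Dusp6 window held 0 matches. In Dusp5 there were 2 CArG boxes side by side, CCATATTTGG starting 82 bases and CCTTATATGG starting 72 bases before the start site, and Areg held 1 CRE starting 61 bases before it. Among the first-listed windows of all 27025 genes, 1.57% held a CArG box, 1.88% the CRE, 7.93% the AP-1 motif, 4.0% the ETS motif and 8.47% the STAT motif. Of the 9262 of these genes in the count table, 116 had a CArG box, and the shares with the CRE, AP-1, ETS and STAT motifs were 3.43%, 4.86%, 8.82% and 6.79%. A match describes the letters and is no evidence of binding.

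Per length of transcript, the phosphatase genes Dusp4 and Dusp5 and the ligand gene Hbegf led the members in every group. In CPM per kilobase of the longest annotated transcript, Dusp4 stood at 82.2 ± 2.6 in IL27_pepL, 85.7 ± 3.8 in IL27_scr and 82.5 ± 2.0 in plasmid control (SD, n = 3 each). Dusp5 stood at 70.7 ± 4.5, 69.2 ± 3.6 and 64.4 ± 1.8 CPM per kilobase in the same groups, and Hbegf at 58.3 ± 1.7, 68.8 ± 2.1 and 67.5 ± 4.4. The place of Hbegf thus differed: its libraries lay below all those of Dusp5 in IL27_pepL and overlapped them in IL27_scr and in plasmid control. Etv4 came next in each group (40.6, 40.3 and 40.6 CPM per kilobase). Dusp6 stood below Spry2 in IL27_pepL and above it in IL27_scr and plasmid control, with no overlap of libraries in any group. In IL27_pepL they nearly touched, at 29.6 CPM per kilobase for the highest Dusp6 library and 29.7 for the lowest Spry2 library. Etv5 and Spred1 followed in every group, with the libraries of Etv5 overlapping those of Spry2 in plasmid control. At the low end were Areg (10.3, 11.6 and 10.2 CPM per kilobase) and Spry4 (8.11, 9.55 and 9.80), whose libraries overlapped in plasmid control.

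**Figure D1:**
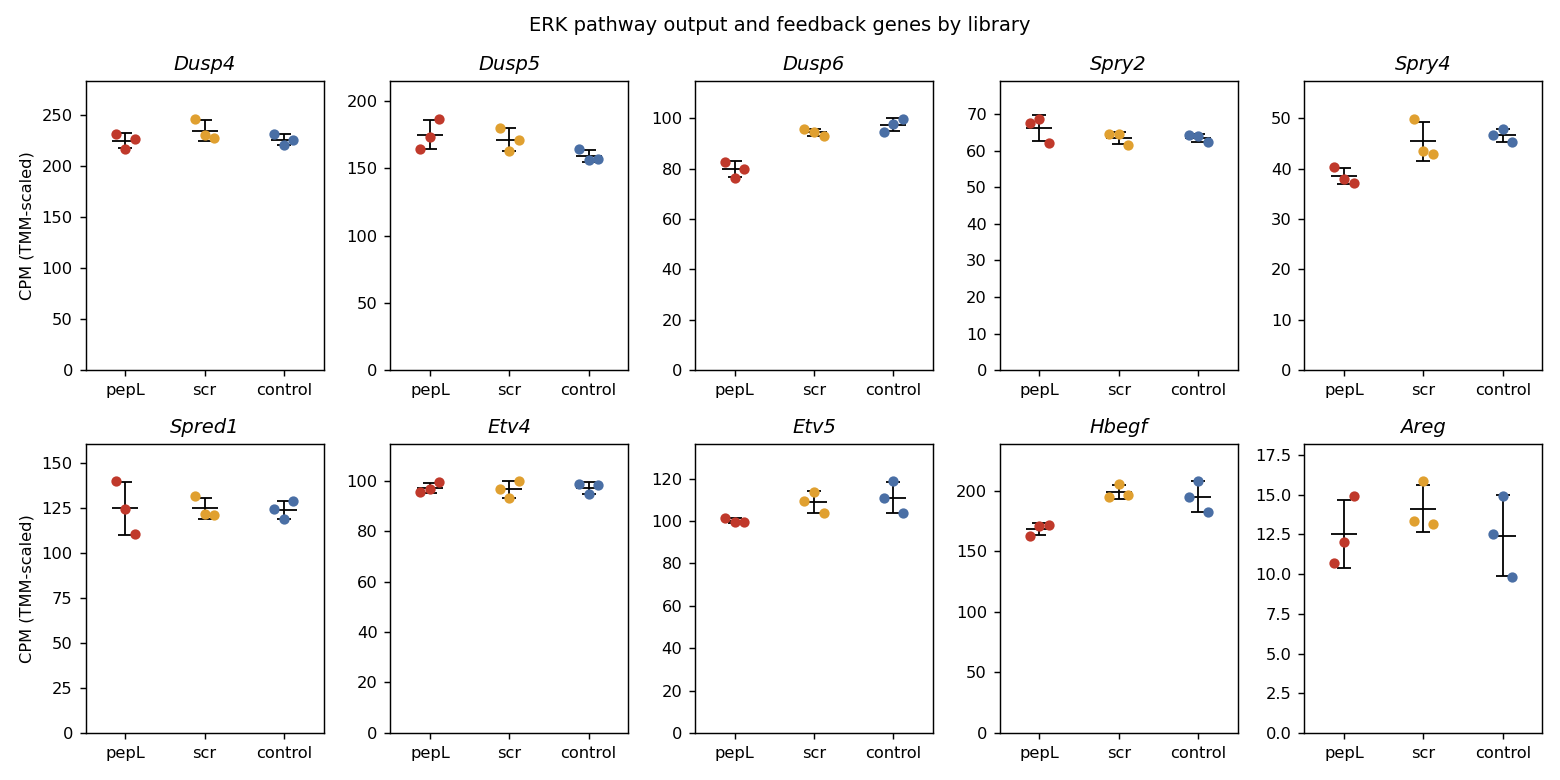
Level of each of the 10 genes in every library, in CPM with library sizes scaled by TMM factors, for IL27_pepL, IL27_scr and plasmid control (control). Points are libraries, the bar is the mean and the whiskers the SD (n = 3); the IL27_pepL libraries of Dusp6, Spry4, Etv5 and Hbegf lie below all others.

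The first comparison, IL27_pepL against plasmid control, asked what IL-27 carrying the receptor-directed peptide did to these outputs. Of the 10 members, 1 changed: Dusp6 fell by 18.2%. Spry4, Hbegf and Etv5 also had lower levels in every IL27_pepL library than in any plasmid control library without passing the test, and the Dusp5 libraries lay above those of plasmid control, also without passing. In edgeR's quasi-likelihood test, with p adjusted by Benjamini and Hochberg's method over all genes and a threshold of 0.05, 0 members were called higher and 1 lower. Of all 12125 genes 1.62% were called, 0.429% higher and 1.20% lower. The members' median log2 fold change was -0.0036, against 0.0023 for all genes. At an unadjusted p under 0.05 there were 5 members, where 23.0% of all genes passed.

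Among the phosphatases, Dusp6 encodes the cytoplasmic enzyme that acts on ERK with high selectivity (chromosome 10, 99263231 to 99267489, plus strand, mm10). It measured 82.8, 76.4 and 79.9 CPM in IL27_pepL replicates 1 to 3, against 94.6, 97.9 and 99.8 CPM in plasmid control replicates 1 to 3. All IL27_pepL libraries lay below all plasmid control libraries. The log2 fold change was -0.29 ± 0.05 (SE), with a 95% interval of -0.39 to -0.19 (edgeR adjusted p = 0.0104). These are bulk libraries, so fewer cells that express a gene and less RNA per cell cannot be told apart. The call was lost in a fit of only the compared groups (adjusted p = 0.0542) and without IL27_pepL replicate 2 (0.0611) or plasmid control replicate 2 (0.0532) or 3 (0.0624), and was kept without IL27_pepL replicate 3 (0.0117).

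Dusp5, the nuclear ERK phosphatase (chromosome 19, 53529109 to 53542431, plus strand), measured 164.6, 173.5 and 186.7 CPM in IL27_pepL, against 164.4, 156.3 and 156.9 CPM in plasmid control. The groups did not overlap, but the lowest IL27_pepL library and the highest plasmid control library lay side by side. Its log2 fold change was 0.14 ± 0.05 (adjusted p = 0.167), and it passed only without IL27_pepL replicate 1 (0.18 ± 0.05, adjusted p = 0.0325). An antisense gene overlaps 547 bases of the locus, exon included, and because the strand setting of the counting is not given in the sources used here, reads of the pair cannot be told apart. Dusp4, another nuclear phosphatase induced by ERK (chromosome 8, 34807297 to 34819894, plus strand), ranged from 217 to 231 CPM in IL27_pepL and from 221 to 232 CPM in plasmid control (adjusted p = 0.951; 95% interval of the log2 fold change -0.11 to 0.09).

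Of the inhibitors that act above RAF, Spry4 (chromosome 18, 38586247 to 38601415, minus strand) had the same direction as Dusp6. It measured 40.4, 38.0 and 37.2 CPM in IL27_pepL, against 46.6, 47.8 and 45.3 CPM in plasmid control. The groups did not overlap, and the log2 fold change was -0.27 ± 0.06 (edgeR adjusted p = 0.0534). Spry4 passed with DESeq2's Wald test (adjusted p = 0.00986), with a length and GC offset (0.0393) and with the replicate number as a block. It also passed without IL27_pepL replicate 1 (0.0107) or IL27_scr replicate 1 (0.0345). Spry2 (chromosome 14, 105891947 to 105896819, minus strand) ranged from 62.0 to 68.7 CPM in IL27_pepL and from 62.3 to 64.3 CPM in plasmid control (log2 fold change 0.06 ± 0.05, adjusted p = 0.516). Spred1 (chromosome 2, 117121374 to 117182279, plus strand) measured 139.5, 124.3 and 110.1 CPM in IL27_pepL, a coefficient of variation of 11.8%, against 124.0, 118.4 and 128.5 CPM in plasmid control. The IL27_pepL libraries of Spred1 lay above, within and below the plasmid control range (adjusted p = 0.938).

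Of the 2 genes for ETS transcription factors, Etv5 (chromosome 16, 22381309 to 22439719, minus strand) measured 101.5, 99.4 and 99.6 CPM in IL27_pepL, against 110.7, 118.7 and 104.0 CPM in plasmid control. Its libraries did not overlap, and the log2 fold change was -0.15 ± 0.05 (edgeR adjusted p = 0.132). Etv4 (chromosome 11, 101769742 to 101785371, minus strand) averaged 97.1 ± 2.0 CPM in IL27_pepL and 97.2 ± 2.3 CPM in plasmid control (SD, n = 3 each), and its 95% interval ran from -0.10 to 0.10 on the log2 scale. Over all 9 libraries Etv4 varied least of the members, with an SD of 0.03 in log2 CPM.

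Hbegf, the heparin-binding ligand of the EGF receptor (chromosome 18, 36504927 to 36515805, minus strand), measured 162.9, 171.1 and 171.7 CPM in IL27_pepL, against 195.1, 207.6 and 182.1 CPM in plasmid control. No IL27_pepL library reached the plasmid control range. The log2 fold change was -0.21 ± 0.05 (edgeR adjusted p = 0.0613). Hbegf passed with DESeq2 (0.0147), with the length and GC offset (0.0228), with the replicate block and without IL27_pepL replicate 1 (0.0383). Areg, encoding amphiregulin (chromosome 5, 91139599 to 91148432, plus strand), measured 10.7, 12 and 14.9 CPM in IL27_pepL, against 12.6, 14.9 and 9.84 CPM in plasmid control. The groups overlapped fully, and the 95% interval of -0.31 to 0.32 (log2) was the widest of the members. In all, 4 members were lower and 1 was higher with no overlap between the groups, where 13.4% and 10.7% of all genes were (24.0% in either direction).

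**Figure D2:**
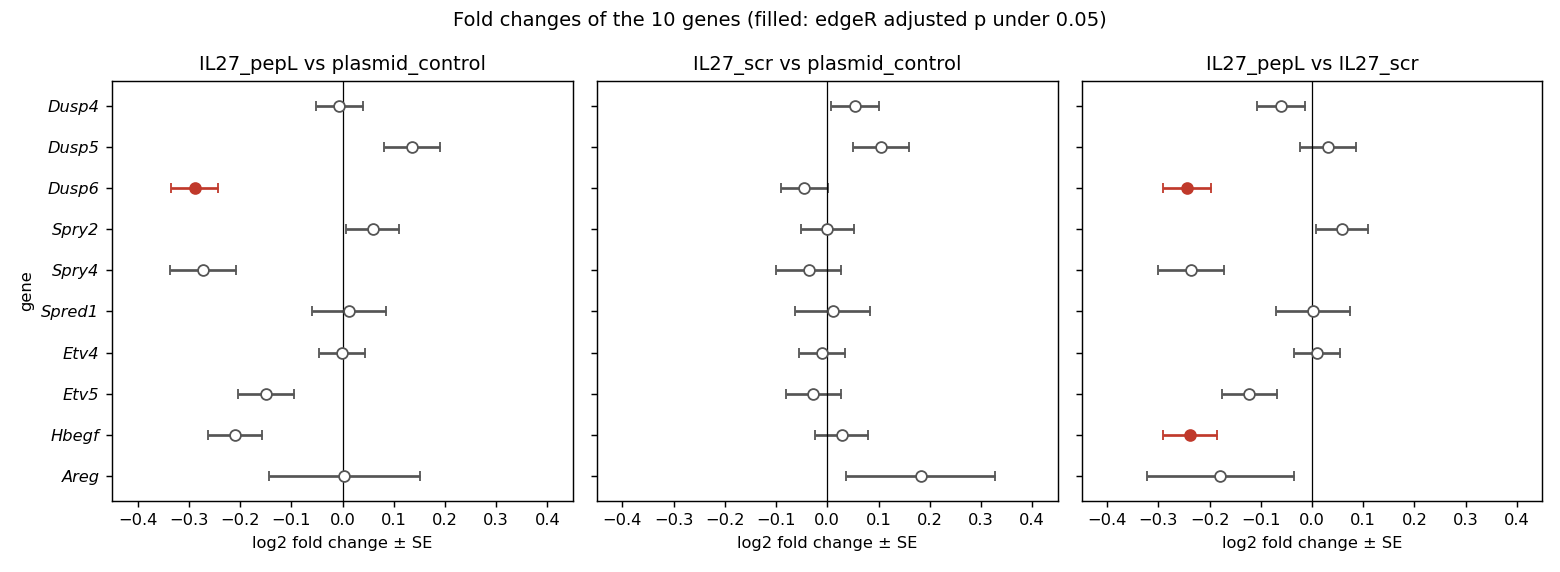
Log2 fold change of the 10 genes in each comparison, with the SE as whiskers; filled points passed edgeR's test at an adjusted p under 0.05. Dusp6 is filled in both comparisons of IL27_pepL, Hbegf in IL27_pepL against IL27_scr, and no gene in IL27_scr against plasmid control.

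The second comparison set IL-27 with the control peptide, IL27_scr, against plasmid control. None of the 10 members passed edgeR's test, where 0.0247% of all genes did (0.0165% higher, 0.00825% lower). The genes behind this share were the plasmid transcripts Il27 and Ebi3, both higher, and Rn45s, lower. With these removed, 0 genes were called. At an unadjusted p under 0.05 there were also 0 members (2.57% of all genes), and DESeq2 and limma-voom called 0. Dusp6 measured 95.8, 94.4 and 92.9 CPM in IL27_scr, and the highest of these lay within the plasmid control range. Its log2 fold change was -0.05 ± 0.05 (adjusted p = 0.999). For Spry4, Etv5 and Hbegf the values were -0.04 ± 0.06, -0.03 ± 0.05 and 0.03 ± 0.05, and for Dusp5 and Dusp4 they were 0.10 ± 0.05 and 0.05 ± 0.05 (adjusted p = 0.999 for each). Areg had the largest estimate and error, 0.18 ± 0.14. All 10 members overlapped between the groups, where the groups did not overlap for 10.0% of all genes (4.75% higher, 5.25% lower).

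The third comparison, IL27_pepL against IL27_scr, set the IL-27 plasmids with different peptides directly against each other. Plasmid transcripts also differed: Ebi3 and Il27 were higher in every IL27_pepL library than in any IL27_scr library. Their log2 fold changes were 0.52 ± 0.14 (edgeR adjusted p = 0.0697) and 0.23 ± 0.11 (0.236), and neither was called. The peptide and the level of IL-27 transcripts thus cannot be told apart here, and the part of each was not tested. Dusp6 fell by 15.6% and Hbegf by 15.2% in IL27_pepL. Spry4 and Etv5 were again lower in every IL27_pepL library without passing, and the other 6 members overlapped between the groups. Called were 2 of the 10 members, both lower, where 2.52% of all genes were called, 1.09% higher and 1.44% lower; 4 were lower without overlap, where 14.3% of all genes were, and 26.0% in either direction. Members passing at an unadjusted p under 0.05 numbered 4, where 23.3% of all genes passed. The members' median log2 fold change was -0.09, against 0.0036 for all genes. This comparison shares the IL27_pepL libraries with the first, so the pair of results are not independent.

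Dusp6 had a log2 fold change of -0.24 ± 0.05 (edgeR adjusted p = 0.0162): the highest IL27_pepL library, 82.8 CPM, lay below the lowest IL27_scr library, 92.9 CPM. Hbegf measured 194.7, 205.6 and 196.1 CPM in the IL27_scr libraries, above the 171.7 CPM of the highest IL27_pepL library. Its log2 fold change was -0.24 ± 0.05 (adjusted p = 0.0298). Spry4 measured 49.9, 43.5 and 42.9 CPM in IL27_scr, where replicate 1 stood above the others, and the log2 fold change was -0.24 ± 0.06 (adjusted p = 0.0694). Without that library it was -0.16 (adjusted p = 0.253). Spry4 passed with DESeq2 (0.0269), with the length and GC offset (0.0423), with the replicate block and without IL27_pepL replicate 1 (0.0199). Etv5 was at -0.12 ± 0.05 (adjusted p = 0.194), and the values of Areg, Dusp4, Dusp5, Spry2, Etv4 and Spred1 were -0.18 ± 0.14, -0.06 ± 0.05, 0.03 ± 0.05, 0.06 ± 0.05, 0.0098 ± 0.04 and 0.0021 ± 0.07. The Dusp6 call was lost without IL27_pepL replicate 2 (0.0773) or IL27_scr replicate 1, 2 or 3 (0.084, 0.0804 and 0.0581). Hbegf lost its call without the same 4 libraries (0.0869, 0.0874, 0.138 and 0.089) and without plasmid control replicate 1 (0.0589).

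**Figure D3:**
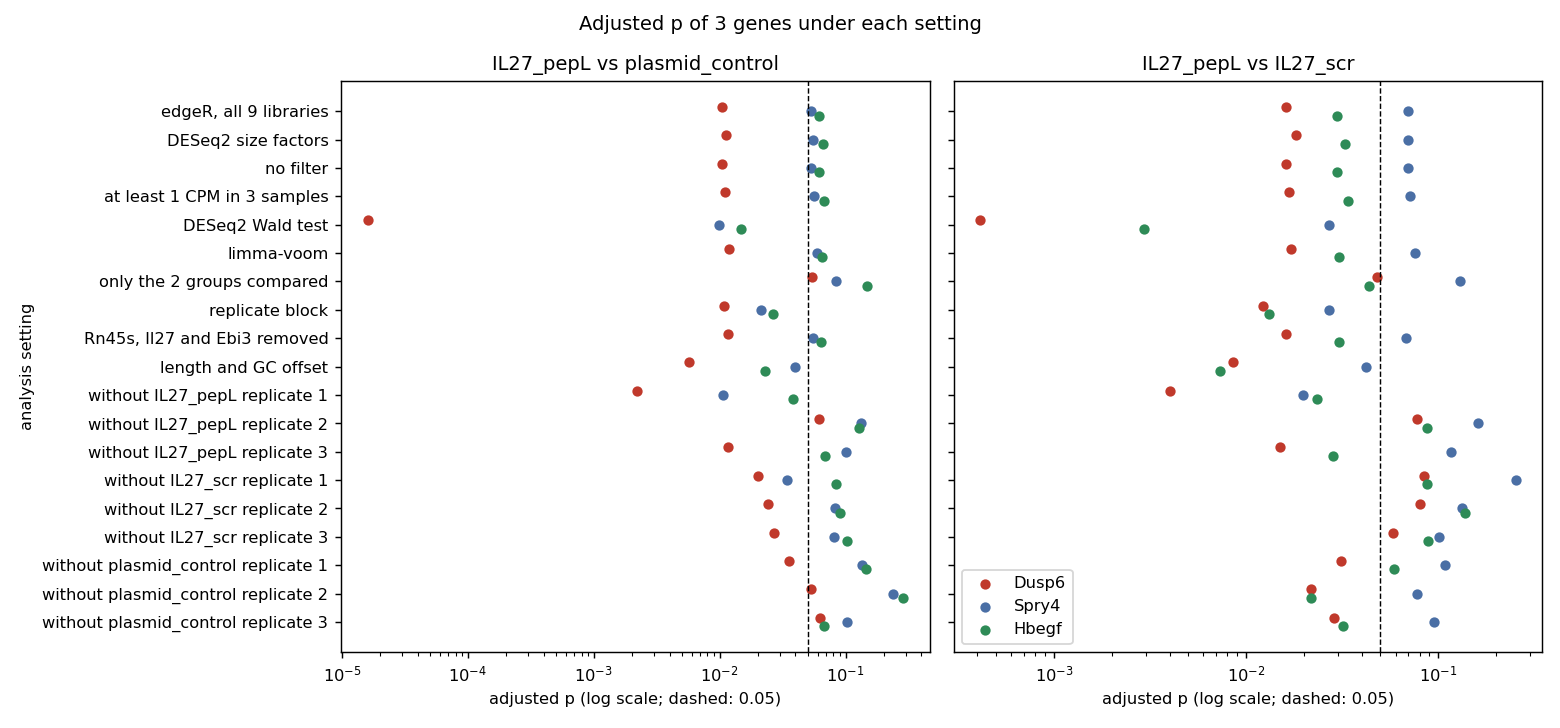
Adjusted p of Dusp6, Spry4 and Hbegf (log axis; the dashed line is 0.05) in both comparisons of IL27_pepL, under the analysis used and under each of 18 alternatives. Dusp6 lies below the line in 14 of the 18 alternatives in each comparison; against IL27_scr, Hbegf does in 13 and Spry4 in 4.

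The pattern of Dusp6 over the libraries was compared with that of every other gene with a mean of at least 1 CPM, by the root mean square difference of log2 CPM centred on the gene's mean over 9 libraries. The 5 most alike of 10920 genes were Zfp280b (0.024), Arl5b (0.040), Sos2 (0.040), Zmym6 (0.042) and Pigg (0.043). Dusp6 itself averaged -0.18 in IL27_pepL, 0.07 in IL27_scr and 0.11 in plasmid control on this centred scale, and Zfp280b averaged -0.19, 0.08 and 0.12. Among the other members Spry4 was the most alike (0.06), followed by Hbegf (0.08) and Etv5 (0.09), and Areg the least (0.25). Ranked among all genes by likeness to Dusp6, they stood at 51, 396, 638 and 9915, so many genes outside the members were closer.

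Further genes of the pathway came from 6 lists of 62 genes, of which 58 had a row; Spry3, Epgn, Erbb3 and Erbb4 were not analysed here. Among 9 other dual-specificity phosphatase genes, 1 rose and 1 fell in IL27_pepL against plasmid control, and 7 did not pass. Dusp1, a nuclear phosphatase induced by stress and growth factors, rose (0.58 ± 0.06, edgeR adjusted p = 3.23e-04), with 78.0, 78.4 and 75.8 CPM in IL27_pepL, against 52.3, 47.4 and 55.5 CPM in plasmid control. Dusp8, directed mainly at the stress kinases JNK and p38, fell (-0.39 ± 0.07, 0.0206). Its call was lost in a fit of only the compared groups (0.0637) and without plasmid control replicate 1, 2 or 3 (0.0593, 0.123 and 0.0672). Thus Dusp1 and Dusp6, both ERK-inducible, stood on opposite sides of the control: all Dusp1 libraries of IL27_pepL lay above, and all Dusp6 libraries below. Against IL27_scr, 1 of the 9 rose and 2 fell: Dusp1 (0.52 ± 0.06, 0.0012), Dusp8 (-0.36 ± 0.07, 0.0218) and the small phosphatase gene Dusp3 (-0.21 ± 0.05, 0.047). The call of Dusp8 against IL27_scr was lost without IL27_scr replicate 1, 2 or 3 (0.11, 0.0769 and 0.0566), and that of Dusp3 without any library but plasmid control replicate 2 and IL27_pepL replicate 1 (0.0526 to 0.182). In a fit of only the compared groups both calls were lost (0.0521 and 0.0749), and with a filter at 1 CPM that of Dusp3 (0.0511). Dusp1 was called whichever library was left out. DESeq2 also called Dusp16 lower in both comparisons (edgeR: -0.23 ± 0.06, 0.0576, and -0.20 ± 0.06, 0.0688) and Dusp3 lower against plasmid control (-0.18 ± 0.05, 0.0828).

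No other Sprouty or Spred gene (3 measured), EGF receptor family ligand (5) or receptor, sheddase or feedback gene of that family (9) passed edgeR's test in any comparison. Against plasmid control, 1, 3 and 1 of these had an unadjusted p under 0.05 in IL27_pepL (23.0% of all genes) and 0, 0 and 1 in IL27_scr (2.57% of all genes), and DESeq2 and limma-voom called 0. In IL27_pepL against IL27_scr the counts at an unadjusted p under 0.05 were 0, 1 and 2 (23.3% of all genes), limma-voom called 0, and DESeq2 called Egf and Rhbdf1. The smallest p-values in IL27_pepL against plasmid control belonged to Spry1 (-0.28 ± 0.11, edgeR adjusted p = 0.165), to Egf, the founding ligand (-0.45 ± 0.18, 0.16), and to Errfi1, an inhibitor of the receptor's kinase (-0.13 ± 0.05, 0.121). In IL27_pepL against IL27_scr they belonged to Spred3 (-0.13 ± 0.07, 0.26), Egf (-0.58 ± 0.18, 0.089) and Rhbdf1, a rhomboid-like protein that handles these ligands (0.21 ± 0.05, 0.0573). In IL27_scr against plasmid control the smallest p-values in the 6 lists belonged to Dusp1, Spry1, Ereg, Rhbdf1, Shc1 and Ier3, with log2 fold changes of 0.07 ± 0.06, -0.13 ± 0.11, 0.12 ± 0.07, -0.12 ± 0.05, -0.06 ± 0.04 and 0.17 ± 0.09 (adjusted p = 0.999 for each).

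Of 19 genes of the cascade from adaptors to ERK, Sos2, which loads RAS with GTP, fell in IL27_pepL against plasmid control (-0.24 ± 0.05, edgeR adjusted p = 0.0314) and against IL27_scr (-0.20 ± 0.05, 0.0492), and 18 did not pass in either. DESeq2 also called the MEK genes Map2k1 and Map2k2 higher against plasmid control (edgeR: 0.18 ± 0.05, 0.0858, and 0.15 ± 0.04, 0.0934) and the ERK1 gene Mapk3 higher against IL27_scr (0.17 ± 0.05, 0.0883). The Sos2 call against plasmid control was kept in 1 of the 9 fits that each left out 1 library, that without IL27_pepL replicate 1 (adjusted p of 0.0507 to 0.162 in the others), and it was lost with the length and GC offset (-0.17 ± 0.04, 0.0591). Against IL27_scr it was kept without IL27_pepL replicate 1 or plasmid control replicate 2 (0.0718 to 0.175 without any other library) and lost with the offset (-0.15, 0.0685). Of 13 other ERK outputs, the transcription factor gene Egr1 rose to 853 ± 75 CPM in IL27_pepL, against 531 ± 53 CPM in plasmid control (SD, n = 3 each; log2 fold change 0.69 ± 0.09, adjusted p = 0.00207), and 12 did not pass. Against IL27_scr Egr1 rose (0.68 ± 0.09, 0.00208) and Myc fell (-0.26 ± 0.06, 0.0491), and 11 did not pass. DESeq2 called 2 genes of this list lower in both comparisons, Myc and the ephrin receptor gene Epha2; against plasmid control edgeR gave -0.25 ± 0.06 (adjusted p = 0.0619) and -0.18 ± 0.05 (0.0908). The call of Myc was kept without IL27_pepL replicate 1 or 3 or plasmid control replicate 2 (0.0688 to 0.168 without any other library), and that of Egr1 whichever library was left out. Sos2 (0.11 and 0.0929) and Myc (0.0562) also lost their calls when the fit held only the compared groups. Against IL27_scr, DESeq2 size factors ended the calls of Sos2 (0.0515) and Myc (0.0517), and the filter at 1 CPM that of Myc (0.0547). The median log2 fold change of these lists in IL27_pepL against plasmid control lay between -0.19 (ligands) and -0.01 (ERK outputs), and that of all genes was 0.0023.

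**Figure D4:**
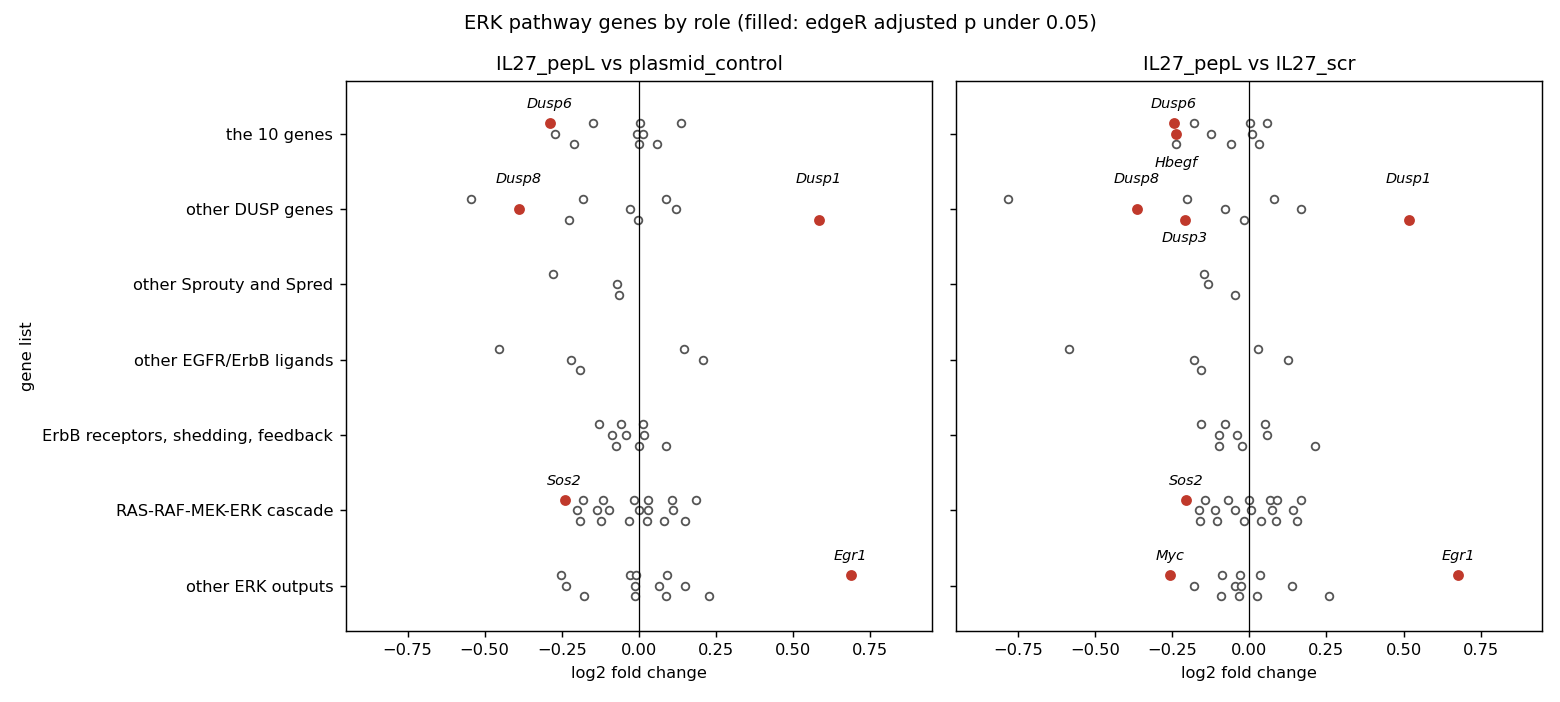
Log2 fold change of each measured ERK pathway gene, by list, in IL27_pepL against plasmid control (left) and against IL27_scr (right); each point is a gene, and filled, named points passed edgeR's test at an adjusted p under 0.05. Dusp1 and Egr1 lie to the right of 0 while the other called genes, Dusp6 among them, lie to the left.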

How the data were processed

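RNA sequencing read counts for 12125 genes in 9 libraries, 3 per group, were used as deposited. The counts are raw, per gene, with 1 column per library; the submitters' processing notes name FastQC, STAR, featureCounts, Subread (1.6.1) and edgeR (3.22.5) and build mm10, with no roles or order. The sources used here give no strand setting, annotation or RNA selection. Every gene had at least 99 reads in total, so low genes appear to have been removed before deposit.

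In R 4.3.3, edgeR 4.0.16 fitted all 9 libraries with a term for group, TMM normalization and the quasi-likelihood test; p-values were adjusted over 12125 genes, filterByExpr removed 0, and the 95% intervals of log2 fold changes use the t distribution. CPM values use TMM-scaled library sizes. Positions, transcript lengths and GC content come from GENCODE M21, known for 96.4% of genes by symbol. The members, lists and tests were chosen with earlier results of these data known. Named were all members, up to 4 called genes of each other list (or the 1 with the smallest p), and the 5 genes most like Dusp6. Alternatives were DESeq2 1.42.0 (size factors, Wald test), limma-voom 3.58.1, other filters, a fit without the group not compared, the replicate number as a block, removal of Rn45s, Il27 and Ebi3, the length and GC offset, and each library left out. On counts simulated for 12124 genes, edgeR recovered 50% of genes changed 1.25-fold and 92% of those changed 1.5-fold in IL27_pepL against plasmid control, with 12 false calls of 181. The changed genes had a mean of at least 1 CPM, and the libraries were simulated independently of each other, unlike any shared deviation in the real ones. Changes smaller than 1.25-fold, such as those of the members, were not simulated. Changes were simulated only in IL27_pepL; in IL27_scr against plasmid control, where none was simulated, 0 genes were called, so recovery there was not measured.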

Additional observations from a re-analysis of the deposited data

How the results depend on the processing

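Under 18 alternatives per comparison, Dusp6 stayed below 0 in both comparisons of IL27_pepL (-0.31 to -0.26 against plasmid control, -0.27 to -0.21 against IL27_scr), and so did Hbegf, Spry4 and Etv5. The alternative without a filter repeated the main fit, because filterByExpr removed 0 genes. The number of members called in IL27_pepL against plasmid control was 1; it was 3 with DESeq2's Wald test, 3 with the length and GC offset, 0 in a fit of only the compared groups, and 0 to 4 when a library was left out. Against IL27_scr it was 2, and 0 to 3 when a library was left out; in IL27_scr against plasmid control it was 0 throughout. The labels do not say that replicate numbers pair libraries, so the main fit held no block. Deviations of same-numbered replicates 1 to 3 correlated at 0.306, 0.103 and 0.0927 between IL27_pepL and IL27_scr. The values were 0.0431, 0.156 and -0.0618 between IL27_pepL and plasmid control, and 0.0855, 0.198 and 0.0642 between IL27_scr and plasmid control. Differently numbered replicates ranged from -0.223 to 0.122, the highest for IL27_pepL replicate 3 with IL27_scr replicate 2. Same-numbered values of 0.306, 0.156 and 0.198 exceeded that highest value, the other same-numbered values did not, and the reason was not tested. Deviations from a group mean are tied to each other within the group, so these correlations are not independent. With the replicate block 3 members passed against plasmid control (Dusp6, Hbegf and Spry4), and 1019 genes in all in place of 197. Against IL27_scr the same 3 members passed, and 1110 genes in all in place of 306. All genes called against plasmid control numbered 36 to 2084 over the alternatives (774 with DESeq2, 48 with only the compared groups), against IL27_scr 69 to 1782 (811 and 165), and in IL27_scr against plasmid control 0 to 4. Without IL27_pepL replicate 1 the counts were 2084 and 1782. The cause of these shifts was not tested.

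The estimates that changed sign were not called in any alternative. Etv4 against plasmid control in IL27_pepL was 0.00246 with DESeq2 size factors, 0.00342 with the filter at 1 CPM and 0.00231 with DESeq2's test; Areg was -0.128 with the length and GC offset. In IL27_pepL against IL27_scr, Spred1 was -0.00246 with limma-voom and -0.000522 with the replicate block, and with the length and GC offset Dusp5 was -0.0244 and Etv4 -0.0571. In IL27_scr against plasmid control, Spry2 was -2.26e-05 with the filter at 1 CPM and -0.0112 with the offset. With a library left out, the ranges in IL27_pepL against plasmid control were -0.134 to 0.150 for Areg, -0.0222 to 0.0199 for Dusp4, -0.0201 to 0.0184 for Etv4 and -0.0704 to 0.0959 for Spred1. Against IL27_scr they were -0.0152 to 0.0786 for Dusp5, -0.0143 to 0.0336 for Etv4 and -0.0807 to 0.0855 for Spred1. In IL27_scr against plasmid control they were -0.0344 to 0.0135 for Etv4, -0.0717 to 0.0220 for Etv5, -0.0177 to 0.0753 for Hbegf, -0.0296 to 0.0394 for Spred1, -0.0125 to 0.0216 for Spry2 and -0.110 to 0.00275 for Spry4. The median of all genes moved by less than 0.1 under every scaling.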
